A study of Mus musculus with 12 samples.

Results

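The genes described here encode the proteins that carry a signal from the interleukin-1 receptor and the Toll-like receptors into the cell: the adaptor Myd88, the kinase family Irak1, Irak2, Irak3 and Irak4, the ubiquitin ligase Traf6, the regulator Tollip, and the kinase Map3k7 (TAK1) with its partners Tab1 and Tab2. They were chosen by gene symbol, as a list of 10, from the array's annotation, and 9 of them had a probe set among the 19938 genes tested. Irak4 had no listed probe set and was not analysed here. Expression was measured on whole-transcript arrays in the contused spinal cord of Il1a KO mice, Il1b KO mice and wild-type C57BL/6 mice, with 4 arrays per genotype and 12 in all. Both knockouts have the C57BL/6 background strain, per the labels, which do not describe the knockout alleles or give the sex of the animals. All 3 groups received the same contusion of 50 kdyn at an age of 8 to 12 weeks, and the 6 mm segment around the lesion was taken after 24 h. No uninjured cord was analysed here, so every comparison is between injured cords. Values are log2 expression as the authors deposited it, so a difference of 1 is a doubling. The arrays are labelled as biological replicates without a named animal, and each p therefore measures the spread between arrays.

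When interleukin-1 alpha or beta binds its receptor, or a microbial product or damage signal binds a Toll-like receptor, the receptors' inner domains recruit Myd88, which gathers the IRAK kinases into a complex. The complex hands the signal to Traf6, which builds ubiquitin chains, and these chains bring in Map3k7 through Tab2, leading to NF-kB and the stress-activated kinases. Irak3, also called IRAK-M and best known from monocytes and macrophages, and Tollip restrain the pathway. In the injured cord both resident glia and incoming leukocytes use it. Mice without 1 of the cytokines therefore offer a way to ask whether the shared signalling parts are held at another level when 1 of their inputs is missing.

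Il1a averaged 4.97 ± 0.0749 in Il1a KO cords, 5.10 ± 0.209 in Il1b KO cords and 5.87 ± 0.232 in C57BL/6 cords (SD, n = 4 each). Il1b averaged 8.08 ± 0.0946 in Il1a KO cords, 6.42 ± 0.183 in Il1b KO cords and 7.83 ± 0.161 in C57BL/6 cords (SD, n = 4 each). Each targeted gene passed the test in its own knockout (limma adjusted p = 0.00372 for Il1a in Il1a KO cords and 2.64e-06 for Il1b in Il1b KO cords), and Il1a was also lower in Il1b KO than in C57BL/6 cords (limma adjusted p = 0.0039). Between the knockouts Il1a was not shown to differ (Il1a KO minus Il1b KO -0.13 on the log2 scale, limma adjusted p = 0.849). At this probe set the Il1b KO was thus low in both cytokine genes. Marker genes of the labelled tissue were present in every array, with list means of 11.31 to 11.39 for neurons and 11.79 to 12.09 for oligodendrocytes. Il1a KO replicate 1 stood apart by its sex-linked genes, with Xist at 6.47, where the other 11 arrays had 11.9 to 12.2, and the Y-linked Eif2s3y at 9.15, where they had 3.65 to 3.94. Values without this array are given for Irak2, Irak3 and Myd88, and for the marker relations whether they passed.

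No member passed the test in either knockout or between the knockouts, and the member closest to it was Irak2, whose mean in Il1b KO cords was 1.18-fold that in C57BL/6 cords (limma adjusted p = 0.0633). The limma fit on all 12 arrays called 0 of 9 members in Il1a KO against C57BL/6 cords, where it called 0.171% of all genes. It called 0 of 9 in Il1b KO against C57BL/6 cords, with 0.813% of all genes called, and 0 of 9 in Il1a KO against Il1b KO cords, with 0.652% of all genes called. Called means a Benjamini-Hochberg adjusted p under 0.05 over all genes. With an unadjusted p under 0.05 and a higher level there was 1 member in the Il1a KO, where 4.54% of all genes had both, and 1 in the Il1b KO, where 8.42% did, Irak2 both times and with no member lower. In either direction 1658 of 19938 genes had such a p in the Il1a KO and 2593 in the Il1b KO, against 1 of 9 members in each. Between the knockouts 0 members had such a p in either direction, against 7.79% of all genes. The F test over the 3 genotypes also called 0 of 9 members, against 0.893% of all genes, with Irak2 at the smallest adjusted p (0.125) and the only unadjusted p under 0.05, which 11.5% of all genes had. The arrays of the compared groups did not overlap for 1 member in the Il1a KO (Irak3, lower, as for 2.19% of all genes) and 1 in the Il1b KO (Irak2, higher, as for 5.06% of all genes). Both shares cover only the direction seen in that member. Between the knockouts the count of such members was 0, where 7.24% of all genes did not overlap in either direction. The median absolute log2 fold change of the members was 0.0447 in the Il1a KO and 0.0344 in the Il1b KO, and over all genes it was 0.0439 and 0.0550.

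**Figure D1:**
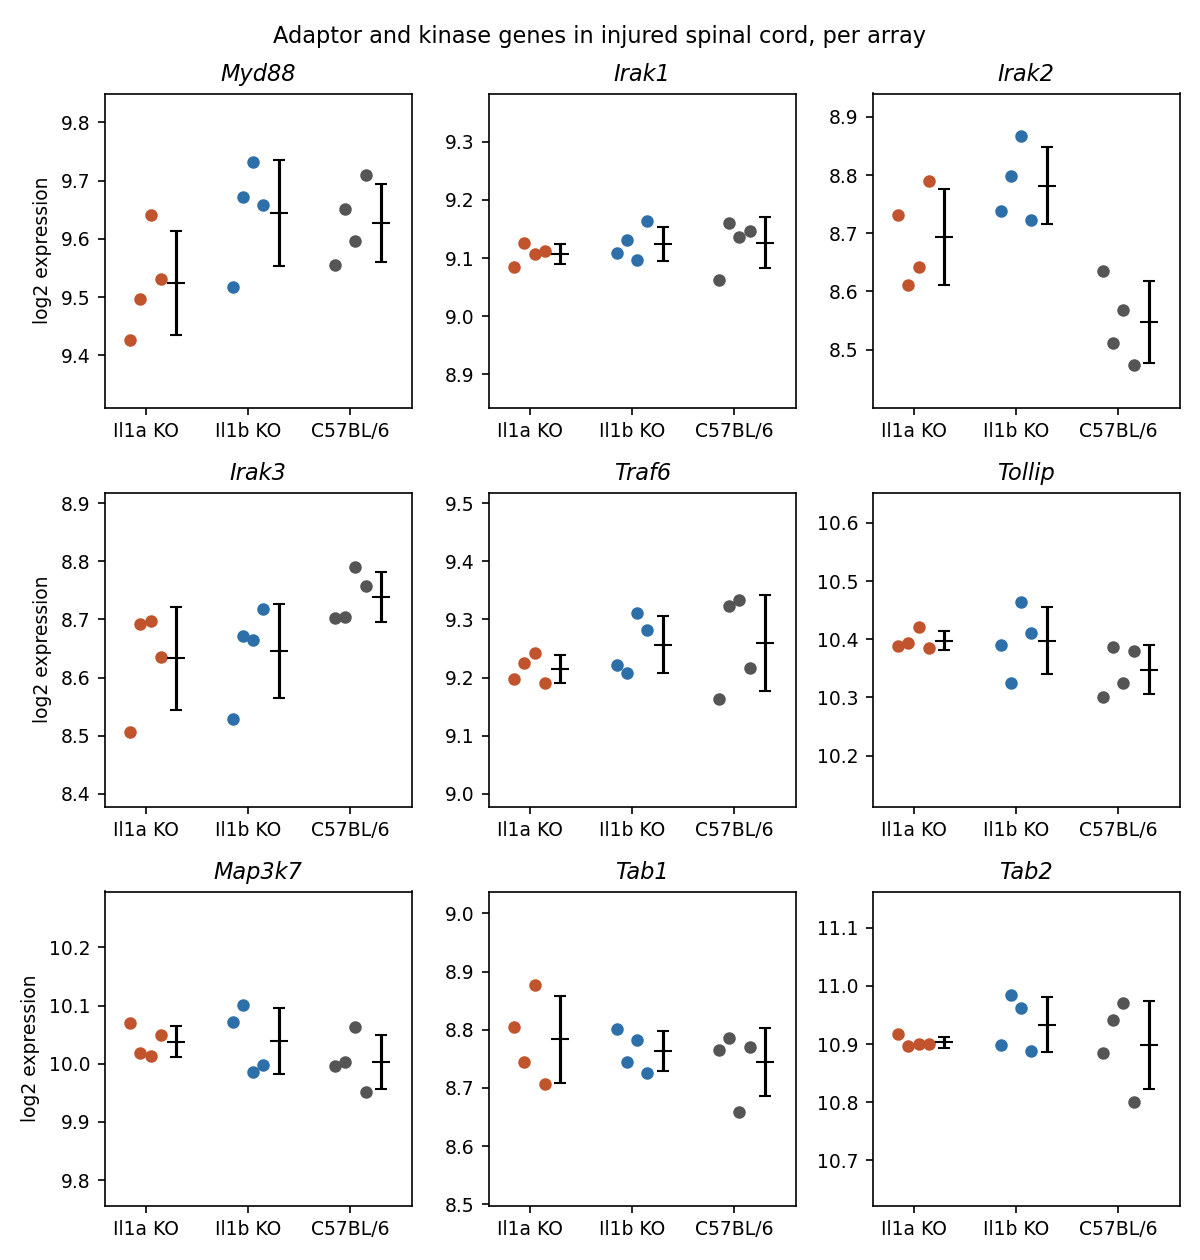
Log2 expression of the 9 measured members (vertical axes, of equal span in every panel) in each array of Il1a KO, Il1b KO and C57BL/6 cords, with the mean and SD of 4 arrays in black. Irak2 is the one member whose 4 Il1b KO arrays (8.72 to 8.87) all lie above its 4 C57BL/6 arrays (8.47 to 8.64), and all 12 Irak1 arrays lie between 9.06 and 9.16.

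Irak2 is an IRAK family member that associates with Myd88 and Irak4 and sustains signalling after Irak1 has been consumed. Its arrays read 8.73, 8.61, 8.64 and 8.79 in Il1a KO cords and 8.74, 8.80, 8.87 and 8.72 in Il1b KO cords, against 8.64, 8.51, 8.57 and 8.47 in C57BL/6 cords. Every Il1b KO array lay above every C57BL/6 array, while 1 Il1a KO array lay below the highest C57BL/6 array. Separation with the Il1b KO arrays on top held for 5.06% of all genes. The Il1b KO mean was 1.18-fold that of C57BL/6, a log2 fold change of 0.23 with an SE of 0.0525 (95% interval 0.12 to 0.35). With limma its adjusted p over all genes was 0.0633, at an unadjusted p of 6.28e-04 that ranked 197 of 19938. The exact two-sided permutation test over the 8 arrays gave p = 0.0286, the smallest that 70 splits allow. Arrays without overlap always give this value, so it adds nothing to the separation above. In the Il1a KO the mean was 1.11-fold that of C57BL/6 (log2 fold change 0.15, 95% interval 0.033 to 0.26, limma adjusted p = 0.427), with 4 of 4 arrays above the C57BL/6 mean and an exact permutation p of 0.0571. Il1a KO minus Il1b KO was -0.088 on the log2 scale (95% interval -0.20 to 0.025, limma adjusted p = 0.745), so the 2 knockouts were not shown to differ. Both knockout values share the same 4 C57BL/6 arrays.

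The call of Irak2 in the Il1b KO depended on the fit. It passed with an intensity trend in the prior (limma adjusted p = 0.0342), with array quality weights (0.015), with genes below the median level left out (0.0221) and without C57BL/6 replicate 1 (0.0454), that is in 4 of 20 alternative fits. In the other fits the adjusted p ranged up to 0.215, the value without C57BL/6 replicate 4, and over all 20 the log2 fold change ranged from 0.20 to 0.26. Several of the 20 could not move this fold change. These were the trend, the filter on level, all probe sets, the replicate block, the fit of only the compared groups and each Il1a KO array left out. Leaving out Il1a KO replicate 1, an array outside this comparison, gave a limma adjusted p of 0.0853. In Il1a KO against C57BL/6 cords, Irak2 without that array had a log2 fold change of 0.13 (limma adjusted p = 0.872).

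**Figure D2:**
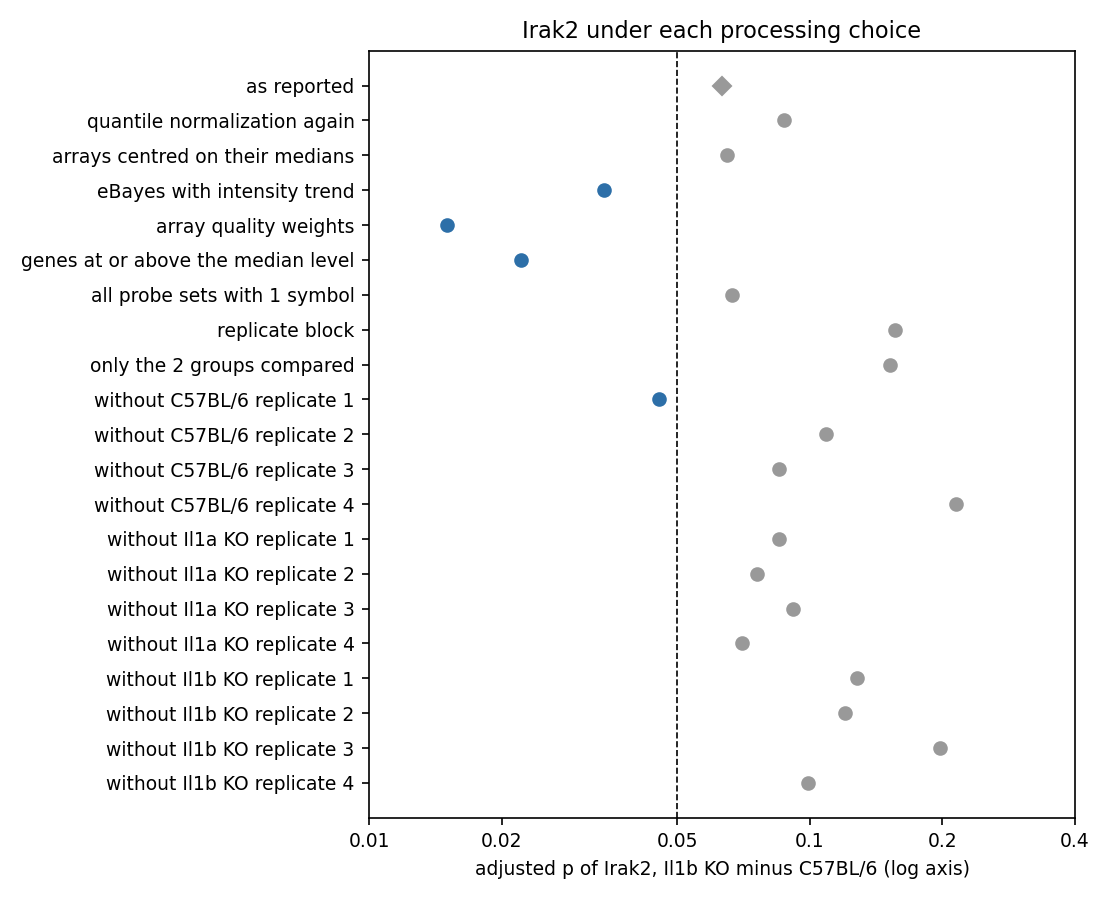
Limma adjusted p of Irak2 in Il1b KO against C57BL/6 cords (horizontal log axis) as reported (diamond) and under each alternative fit (circles), with a dashed line at the threshold of 0.05 and fits below it in blue. The blue points are the 4 fits that pass, from 0.015 to 0.0454.

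The genes that flank Irak2 were read as well. Of the 10 measured genes on either side of Irak2, 20 in all, 1 passed in Il1b KO against C57BL/6 cords (0.813% of all genes did), with log2 fold changes from -0.18 to 0.16. That gene was the histamine receptor Hrh1, named after its value was seen, and the Il1b KO had the lower level (-0.18 on the log2 scale, SE 0.0349, limma adjusted p = 0.0304). Among the same 20 genes 0 passed in Il1a KO against C57BL/6 cords, where 0.171% of all genes did.

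The windows of 250 bases before the transcription start are printed for the members described array by array (Irak2, Myd88 and Irak3) and for Map3k7, the only one of the members found in the table with a match to the 10-base NF-kB (kappa-B) consensus, in capitals. Sequences are from RefSeq on GRCm38.p6, which listed 12 windows for 9 of the 10 members, Tab1 not among them, and are written 5′ to 3′ on the gene's strand.
Irak2, chr6:113638217-113638466, plus strand: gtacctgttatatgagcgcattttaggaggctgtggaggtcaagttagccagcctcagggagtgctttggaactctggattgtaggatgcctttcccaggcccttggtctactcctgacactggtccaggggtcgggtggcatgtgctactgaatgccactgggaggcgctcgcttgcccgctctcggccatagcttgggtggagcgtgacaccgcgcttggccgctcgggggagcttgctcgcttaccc
Myd88, chr9:119340019-119340268, minus strand: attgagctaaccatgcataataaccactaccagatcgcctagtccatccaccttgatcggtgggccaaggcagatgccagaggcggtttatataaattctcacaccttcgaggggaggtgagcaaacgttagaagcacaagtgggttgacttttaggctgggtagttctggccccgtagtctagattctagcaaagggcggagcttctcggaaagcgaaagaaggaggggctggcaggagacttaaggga
Irak3, chr10:120202131-120202380, minus strand, the farther upstream of its 2 starts: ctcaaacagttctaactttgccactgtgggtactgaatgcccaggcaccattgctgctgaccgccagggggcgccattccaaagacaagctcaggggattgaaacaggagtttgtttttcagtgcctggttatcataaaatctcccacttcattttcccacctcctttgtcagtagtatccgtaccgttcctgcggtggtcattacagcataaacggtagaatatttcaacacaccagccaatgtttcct
Map3k7, chr4:31963857-31964106, plus strand: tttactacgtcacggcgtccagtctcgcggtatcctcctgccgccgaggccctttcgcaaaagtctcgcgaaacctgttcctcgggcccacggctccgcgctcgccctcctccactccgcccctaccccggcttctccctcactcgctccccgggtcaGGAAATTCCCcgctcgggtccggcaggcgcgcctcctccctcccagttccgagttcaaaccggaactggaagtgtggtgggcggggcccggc
The consensus was searched on both strands and was found in 1 of the 12 member windows, against 3.9% of 32851 windows of the same length in the table. The match is a description of the letters and says nothing of binding. The windows also differed in CpG dinucleotides, with 28 in Map3k7, 12 in Irak2, 9 in Myd88 and 6 in the Irak3 window shown, and a median of 6 over the table.

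Myd88, the adaptor on which the interleukin-1 receptor and all Toll-like receptors except Tlr3 depend, did not pass. Its arrays read 9.43, 9.50, 9.64 and 9.53 in Il1a KO cords and 9.52, 9.67, 9.73 and 9.66 in Il1b KO cords, against 9.55, 9.65, 9.60 and 9.71 in C57BL/6 cords. The 3 groups overlapped, and replicate 1 was the lowest array of each. The log2 fold change was -0.10 in the Il1a KO (95% interval -0.23 to 0.021, limma adjusted p = 0.708) and 0.018 in the Il1b KO (95% interval -0.11 to 0.14, adjusted p = 0.93). Il1a KO minus Il1b KO was -0.12 (95% interval -0.25 to 0.0034, limma adjusted p = 0.664), with 4 of 4 Il1a KO arrays below the Il1b KO mean. Without Il1a KO replicate 1 the Il1a KO value was -0.071 (limma adjusted p = 0.998), and Il1a KO minus Il1b KO was -0.088 (adjusted p = 0.81).

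Irak3, the IRAK member that restrains the Myd88 complex, read 8.51, 8.69, 8.70 and 8.64 in Il1a KO cords and 8.53, 8.67, 8.66 and 8.72 in Il1b KO cords, against 8.70, 8.70, 8.79 and 8.76 in C57BL/6 cords. The highest Il1a KO array lay just below the lowest C57BL/6 array, at 8.698 against 8.703, and 2.19% of all genes were lower in the Il1a KO with no overlap, while 1 Il1b KO array lay within the C57BL/6 range. In both knockouts the log2 fold change was negative without passing, at -0.11 in the Il1a KO (95% interval -0.22 to 0.0085, limma adjusted p = 0.649) and -0.093 in the Il1b KO (95% interval -0.21 to 0.021, adjusted p = 0.486). Replicate 1, the lowest array, carried part of both values: without Il1a KO replicate 1 the Il1a KO value was -0.063 (limma adjusted p = 0.998), and without Il1b KO replicate 1 the Il1b KO value was -0.054 (adjusted p = 0.779). The exact two-sided permutation test on all arrays gave p = 0.0286 in the Il1a KO and 0.0857 in the Il1b KO. The former is the smallest it allows, which arrays without overlap always give. Il1a KO minus Il1b KO was -0.013 (95% interval -0.13 to 0.10).

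Irak1, the kinase phosphorylated early in the complex, had the smallest spread of the 9 members. It ranged from 9.06 to 9.16 over all 12 arrays, and its SD within groups of 0.0319 lay at percentile 2.38 of all genes, where the median SD was 0.0841. Its log2 fold change was -0.019 in the Il1a KO (95% interval -0.096 to 0.057) and -0.0017 in the Il1b KO (95% interval -0.078 to 0.075). Irak1 is X-linked, and Il1a KO replicate 1, the array with the male-type profile, read 9.08, against 9.11 to 9.13 in the other Il1a KO arrays. C57BL/6 replicate 1, with Xist at 11.9, read lower still, at 9.06. A part of sex in these levels was not tested.

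Traf6 averaged 9.21 ± 0.0240 in Il1a KO cords and 9.26 ± 0.0491 in Il1b KO cords, against 9.26 ± 0.0831 in C57BL/6 cords (SD, n = 4 each). The C57BL/6 arrays were the most spread, from 9.16 to 9.33, and enclosed all 8 knockout arrays. The log2 fold changes were -0.045 in the Il1a KO (95% interval -0.14 to 0.053) and -0.0030 in the Il1b KO (95% interval -0.10 to 0.095). Tollip, which binds the receptor complex and ubiquitin and dampens the signal, averaged 10.40 ± 0.0161 in Il1a KO cords and 10.40 ± 0.0577 in Il1b KO cords, against 10.35 ± 0.0421 in C57BL/6 cords (SD, n = 4 each). Its log2 fold change was 0.050 in each knockout (95% interval -0.035 to 0.13 in both), and the groups overlapped, with Il1a KO arrays from 10.39 to 10.42 and Il1b KO arrays from 10.33 to 10.46, against C57BL/6 arrays from 10.30 to 10.39.

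None of the genes of the TAK1 complex passed. Map3k7, the kinase itself, averaged 10.04 ± 0.0266 in Il1a KO cords and 10.04 ± 0.0561 in Il1b KO cords, against 10.003 ± 0.0462 in C57BL/6 cords (SD, n = 4 each). Tab1, which switches the kinase on, averaged 8.78 ± 0.0744 in Il1a KO cords and 8.76 ± 0.0348 in Il1b KO cords, against 8.74 ± 0.0582 in C57BL/6 cords (SD, n = 4 each). Tab2, which tethers the kinase to ubiquitin chains, averaged 10.90 ± 0.00988 in Il1a KO cords and 10.93 ± 0.0475 in Il1b KO cords, against 10.90 ± 0.0754 in C57BL/6 cords (SD, n = 4 each). The groups overlapped in each of these genes, and their limma adjusted p lay between 0.752 and 0.997 in the comparisons with C57BL/6. The log2 fold changes in the Il1a KO were 0.034 for Map3k7, 0.039 for Tab1 and 0.0042 for Tab2. In the Il1b KO they were 0.036 for Map3k7, 0.019 for Tab1 and 0.034 for Tab2. Il1a KO minus Il1b KO differences were -0.0016 for Map3k7, 0.020 for Tab1 and -0.030 for Tab2 on the log2 scale. Beside Irak1, the members Tollip, Map3k7 and Tab2 also varied little within groups, with SDs of 0.0423, 0.0447 and 0.0518 at percentiles 8.35, 10.3 and 16.5 of all genes.

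Setting Irak2 aside, the 95% intervals of the other 8 members ran from 0.854-fold to 1.10-fold in the Il1a KO and from 0.866-fold to 1.10-fold in the Il1b KO. Differences beyond these bounds lay outside the intervals, which are each gene's own and are not widened for their number. A p that misses the threshold does not show that the levels were equal.

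**Figure D3:**
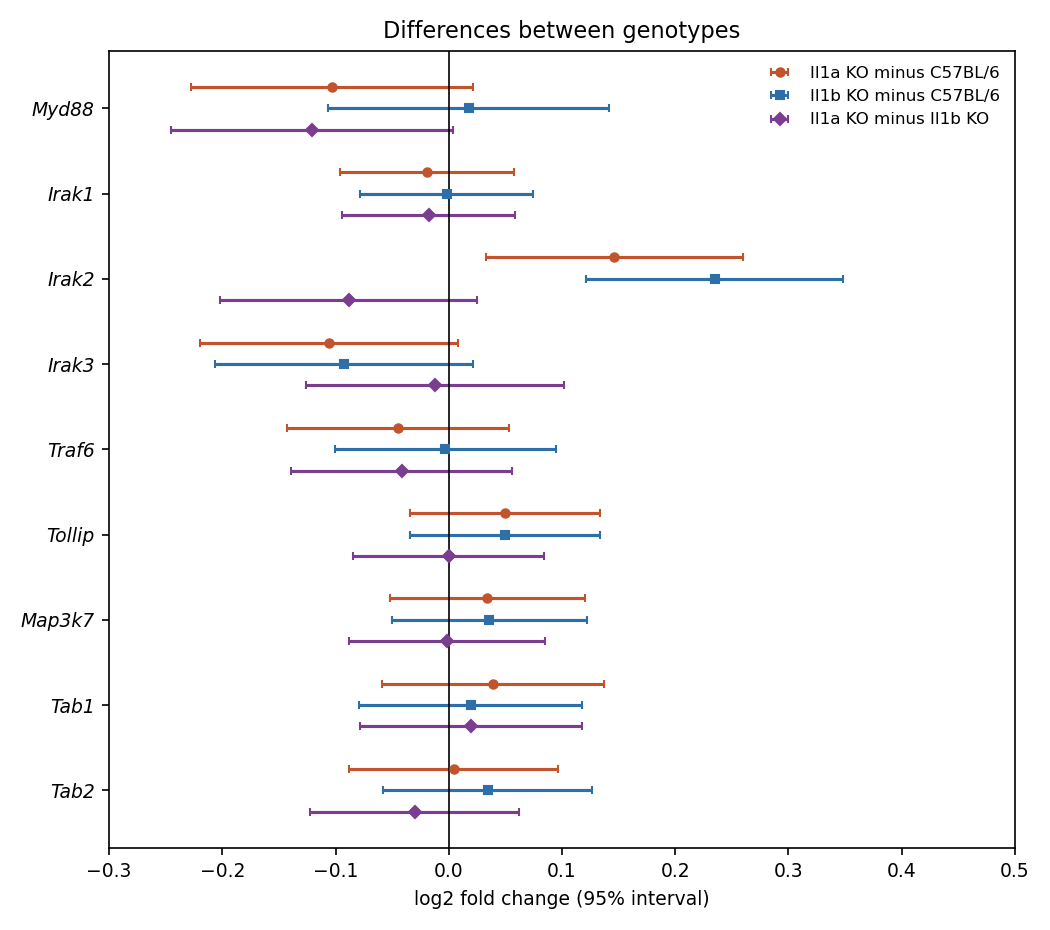
Log2 fold change (horizontal axis) of each member with its 95% interval from limma, for Il1a KO minus C57BL/6 (circles), Il1b KO minus C57BL/6 (squares) and Il1a KO minus Il1b KO (diamonds). The 2 intervals of Irak2 against C57BL/6 lie above 0, at 0.033 to 0.26 and 0.12 to 0.35, and every other interval spans 0.

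Across the 12 arrays, 2 of 27 relations of members with neutrophil, monocyte and macrophage, or microglia markers passed by Pearson r. As deviations from the group means 0 passed. A segment of whole cord mixes cells, so fewer cells of a type and less RNA per cell cannot be told apart. Neutrophil markers had negative log2 fold changes in 11 of 11 genes in Il1a KO cords, 0 of them called (0.171% of all genes were), and in 9 of 11 in Il1b KO cords, 1 of the 11 called (0.813% of all genes were). The mean log2 level of these markers ranged from 7.20 to 7.53 in Il1a KO cords and from 7.06 to 7.77 in Il1b KO cords, against 7.51 to 7.88 in C57BL/6 cords. Of 9 measured monocyte and macrophage markers, 7 had negative log2 fold changes in Il1a KO cords and 4 in Il1b KO cords. In either knockout 0 were called. Their list means were 8.69 to 8.90 in Il1a KO cords and 8.85 to 9.17 in Il1b KO cords. In C57BL/6 cords they were 8.92 to 9.15. Of 9 measured microglia markers, 5 had negative log2 fold changes in Il1a KO cords and 8 in Il1b KO cords. Against C57BL/6 0 were called, and between the knockouts 1 was (0.652% of all genes were). Their list means were 8.31 to 8.47 in Il1a KO cords and 8.25 to 8.35 in Il1b KO cords. In C57BL/6 cords they were 8.21 to 8.42. Outside the leukocytes, oligodendrocyte markers had positive log2 fold changes in 7 of 7 genes in each knockout, 0 of them called, with list means of 11.94 to 12.09 in Il1a KO cords and 11.88 to 12.02 in Il1b KO cords, against 11.79 to 11.89 in C57BL/6 cords. Skeletal muscle markers had negative ones in 8 of 8 genes in each knockout, 0 of them called, with list means of 6.85 to 6.88 in Il1a KO cords and 6.76 to 6.88 in Il1b KO cords, against 6.83 to 7.23 in C57BL/6 cords. The remaining lists were mixed in direction. Negative values were seen for 5 of 7 astrocyte markers in Il1a KO cords and 3 of 7 in Il1b KO cords, where 1 of the 7 was called. For neurons the counts were 4 and 5 of 9, for endothelium 2 and 3 of 6, and for lymphocytes 2 and 4 of 6. In these 3 lists 0 were called.

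Irak3 correlated with the neutrophil markers across the 12 arrays (Pearson r = 0.845, permutation p = 5.3e-04, adjusted p = 0.0143 over 27 relations of 9 members with these 3 lists). Its correlation was positive with 11 of 11 single markers, and Spearman's rho was 0.657 (permutation p = 0.0235, adjusted p = 0.159). The 2 arrays lowest in Irak3, replicate 1 of each knockout, were also the lowest in neutrophil markers. Within groups, as deviations from the group means, r was 0.776 (adjusted p = 0.161). Without C57BL/6 replicate 4 and Il1b KO replicate 1, the arrays farthest from the median marker level, r was 0.751 (adjusted p = 0.285), so the relation no longer passed. When single arrays were left out it held in 9 of 12 cases, and it was lost without Il1a KO replicate 1, Il1a KO replicate 4 or Il1b KO replicate 1, with r from 0.773 to 0.901 over all 12.

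Myd88 correlated with the monocyte and macrophage markers (r = 0.777, permutation p = 0.00335, adjusted p = 0.0452), with a rho of 0.769 (permutation p = 0.00486, adjusted p = 0.0921) and a positive correlation with 9 of 9 single markers. Within groups r was 0.628 (adjusted p = 0.278). Without Il1a KO replicate 1 and Il1b KO replicate 3 it was 0.57 (adjusted p = 0.451). When single arrays were left out the call held in 2 of 12 cases, without C57BL/6 replicate 3 or Il1a KO replicate 3, and was lost in the other 10. The other 25 relations did not pass, and by Spearman's rho 0 of 27 passed. Irak3 had r = 0.669 with the monocyte and macrophage list (permutation adjusted p = 0.0858) and 0.804 within groups (adjusted p = 0.161). Myd88 had r = 0.679 with the neutrophil list (adjusted p = 0.0858) and 0.698 within groups (adjusted p = 0.198). The relations of Irak3 and Myd88 were thus not particular to 1 list. Tab1 had r = 0.686 with the microglia list (adjusted p = 0.0858).

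For Irak2 neither relation passed. Its r was -0.434 with the neutrophil list (permutation p = 0.158, adjusted p = 0.387), with a negative correlation for 10 of 11 single markers, and 0.0158 with the monocyte and macrophage list (permutation p = 0.961). The part of cell content in the levels of Irak2, Irak3 and Myd88 was not tested.

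**Figure D4:**
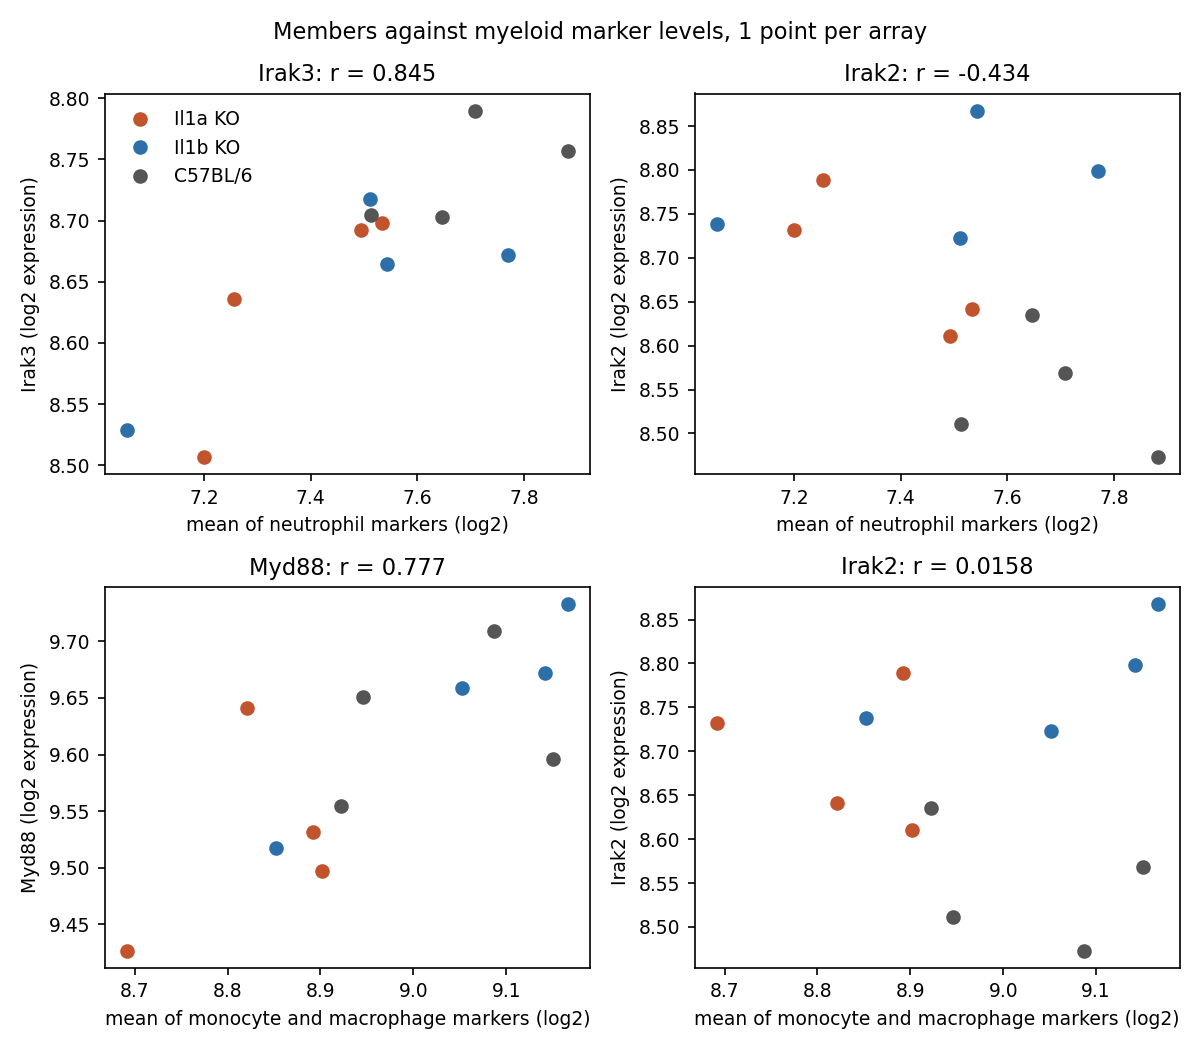
Levels of Irak3, Myd88 and Irak2 (vertical axes, log2 expression) against the mean log2 level of neutrophil markers (top) or of monocyte and macrophage markers (bottom), with 1 point per array coloured by genotype. Irak3 and Myd88 are higher in arrays with higher markers (r = 0.845 and 0.777), though as deviations from the group means neither relation passed. Neither relation of Irak2 passed (r = -0.434 and 0.0158).

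The other genes of the pathway were read from 5 lists with 77 genes, of which 70 were measured. In limma 0 of the 70 were called in either direction in Il1a KO against C57BL/6, Il1b KO against C57BL/6 and Il1a KO against Il1b KO cords. Unadjusted, 9 of 70 (12.9%) fell under 0.05 in each comparison, against 1658, 2593 and 1554 of the 19938 genes. The median log2 fold change over the 70 was -0.015 in the Il1a KO and 0.012 in the Il1b KO, against 3.32e-04 and 0.0040 over all genes. Il1r1, the signalling receptor for both cytokines, had no listed probe set and was not analysed here.

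Among 18 measured receptors and co-receptors, the decoy receptor Il1r2, which binds interleukin-1 without signalling, averaged 7.62 in Il1a KO cords and 7.69 in Il1b KO cords, against 8.30 in C57BL/6 cords (differences of -0.67 and -0.61 with an SE of 0.18, limma adjusted p = 0.254 and 0.171). Tlr6, a partner of Tlr2, had log2 fold changes of -0.21 in the Il1a KO and -0.12 in the Il1b KO, and Il1rl2, the interleukin-36 receptor, of -0.21 and -0.24. Of the other 4 adaptors with the same TIR domain, Tirap, which bridges Myd88 to Tlr2 and Tlr4, was at -0.16 in the Il1a KO and -0.11 in the Il1b KO. Sarm1, whose protein drives axon loss, was at 0.021 and 0.082, and Ticam1, the adaptor of Tlr3, at 0.012 and 0.024.

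Of 21 measured ligases and kinases downstream, Tifa, a binding partner of Traf6, had log2 fold changes of -0.22 in the Il1a KO and -0.15 in the Il1b KO (limma adjusted p = 0.328 and 0.353). Map2k6, a kinase upstream of p38, was at 0.17 and 0.12, and Ikbkb, the kinase of the NF-kB inhibitor, at 0.027 and 0.10. Among 14 feedback inhibitors Nfkbiz, a nuclear regulator induced by interleukin-1, was at -0.19 in the Il1a KO and -0.042 in the Il1b KO. The kinase phosphatase Dusp1 was at -0.18 and 0.071, and the deubiquitinase Cyld at 0.11 and 0.12. Of 13 target genes the chemokine Cxcl2 was at 0.25 in the Il1a KO and 1.06 in the Il1b KO (SE 0.292, limma adjusted p = 0.919 and 0.14), the adhesion molecule Icam1 at -0.11 and -0.19, and the receptor antagonist Il1rn at 0.092 and 0.38. None of these genes passed.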

How the data were processed

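The authors deposited log2 expression values, 1 for each probe set on each array. The tools named are RMA, GCOS 1.4, Partek and limma, per the submitters' processing notes, which state no roles, and that the deposited log2 values come from RMA was inferred from this list and the similar array medians (7.67 to 7.72). RMA gives all arrays 1 distribution of probe intensities before they are summarized to probe sets, and it compresses dim genes. The deposited values need not share 1 distribution, and their medians differed slightly. No genome build is named in those notes. Among 35557 probe sets, 21789 had exactly 1 gene symbol, updated through the Entrez identifier, and the brightest set stood for each of 19938 genes.

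The comparisons used limma 3.58.1 (R 4.3.3) with 1 mean per group over all 12 arrays, moderated statistics without a trend and Benjamini-Hochberg adjustment over all genes. Intervals are 95% intervals of that fit. The step was also run on simulated arrays with independent noise for each gene and no effects shared between genes. Its outcome is not given here, and it does not vouch for the calls above. Correlations used 100000 permutations. All 10 members, Il1a and Il1b were named, and of each pathway list any called gene and the 3 with the smallest p against C57BL/6. The members and lists were chosen with earlier results of these data known. Alternatives were other scalings, spread estimates, filters and samples. For arrays no depth exists, and their number limits the precision.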

Additional observations from a re-analysis of the deposited data

Results flagged for a closer look

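Of 54 groups of 4 arrays examined (9 members and 9 marker lists in 3 genotypes), 2 had an array whose gap to its nearest neighbour, as a share of the group's range, was above Dixon's critical value of 0.829. Chance flags about 1 group in 20. Tab1 in C57BL/6 cords had a gap share of 0.836, from the lowest array, replicate 3, at 8.66 against 8.76 to 8.79 in the others. Tab2 in Il1a KO cords had a gap share of 0.841, from the highest array, replicate 1, at 10.92 against 10.90 in the others, a group whose SD was only 0.00988.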

How the results depend on the processing

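The members called stayed at 0 in the Il1a KO and between the knockouts under all alternatives. In the Il1b KO the count was 1, Irak2, with an intensity trend, with array quality weights and with genes at or above the median level, and 0 to 1 without single arrays; by F it was 1 with weights and with that level filter, and 0 without single arrays. Genes called in the Il1a KO (34) were 72 with the trend, 306 with weights, 68 with the level filter, 15 with only the 2 groups fitted, and 18 to 49 without single arrays. In the Il1b KO (162) they were 303, 1145, 303, 85 and 106 to 177. The split there, 84 higher and 78 lower, was 69 and 98 re-quantiled, 202 and 101 with the trend, 749 and 396 with weights, 230 and 73 with the level filter, 32 and 53 with 2 groups fitted, and 50 and 70 with the replicate block. Between the knockouts (130) they were 244 with weights and 88 to 146 without single arrays, and by F (178) 299, 772 and 272 with trend, weights and filter, and 127 to 202. The arrays behind the lowest counts were C57BL/6 replicate 4 (18 in the Il1a KO and 106 in the Il1b KO without it), Il1a KO replicates 3 and 4 (19 each in the Il1a KO) and Il1b KO replicate 1 (107 in the Il1b KO). The cause was not tested.

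Of 567 member values under alternatives, many could not move from the main fit. The trend, the level filter, all probe sets, the replicate block, fitting only the compared groups and the permutation test keep the fold change. So does leaving out an array of the group outside the comparison. Of the 567, 37 changed sign, each uncalled. With values re-quantiled these were Myd88 in the Il1b KO (-0.016), Tab1 there (-0.013), Tab2 in the Il1a KO (-0.010), and, between the knockouts, Irak1 (0.011), Irak3 (0.013) and Map3k7 (0.024). With centred arrays they were Irak3 (0.0021) and Map3k7 (0.013) between the knockouts. With weights they were Myd88 (-0.056) and Traf6 (0.020) in the Il1b KO, and Irak3 (0.0065) and Tollip (-0.0027) between the knockouts. Without single arrays the log2 fold change in the Il1b KO ran from -0.0115 to 0.060 for Myd88, -0.023 to 0.0094 for Irak1, -0.035 to 0.022 for Traf6 and -0.0094 to 0.033 for Tab1. That of Tab2 in the Il1a KO ran from -0.029 to 0.028. Between the knockouts it ran from -0.051 to 0.030 for Irak3, -0.024 to 0.022 for Tollip, -0.019 to 0.019 for Map3k7 and -0.012 to 0.045 for Tab1.

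Of the marker relations, 2 passed; 0 passed without the 2 farthest arrays, 0 as deviations, and 0 to 2 without single arrays, a check added after seeing the data. The count was 0 without Il1a KO replicate 1, Il1a KO replicate 4 or Il1b KO replicate 1.

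The labels number replicates alike, but over all genes most same-numbered arrays did not deviate together. Their r ran from -0.374 to 0.441 and was over 0.1 in 2 of 12 pairs, highest for replicate 3 of Il1b KO and C57BL/6. Among the members, replicate 1 was the lowest array of every group for Myd88 and Irak3. With a replicate block 0 members were called, Irak2 in the Il1b KO had a limma adjusted p of 0.156, and the genes called were 26, 120, 105 and 130 by F. In 4 of 24 checks an array correlated best with its own number.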
